A study of Homo sapiens with 9 samples.

Results

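The S100 proteins are small EF-hand proteins that bind calcium, and 9 of them were followed by gene symbol in the count and FPKM tables, out of 16222 genes listed. They are S100P, S100A4, S100A6, S100A8, S100A9, S100A10, S100A11, S100A12 and S100A13. The list was drawn up with results of these data already known. S100P was chosen by its own levels, namely its rise with LPS and its difference in the third ABS library, so its values are described here without a test. Which values chose the other 8 is not recorded, so a count over them says nothing about the family as a whole. The cells are THP-1, a human monocytic leukaemia line labelled wild type, and every library, controls included, comes from cells given the phorbol ester PMA, under which the line adheres and takes on macrophage features. The 3 groups of 3 libraries then received PBS (control), LPS, the lipopolysaccharide of Gram-negative bacteria (LPS), or LPS together with ABS (LPS_ABS). The labels do not spell out ABS, the series title concerns apoptotic bodies, and no dose or time is given in the sources used here. Separate cultures are not mentioned in the labels. The p-values therefore judge group differences only against the spread of these libraries, which may be technical. The differences may not carry over to new cultures.

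S100 proteins work mostly as dimers that change shape on binding calcium and then dock onto partner proteins inside the cell. Several are also released and act on surface receptors such as TLR4 and RAGE, where they serve as danger signals. S100A8 and S100A9 pair as calprotectin, a metal-binding complex that is abundant in neutrophils and monocytes, and S100A12 belongs to the same myeloid set. Most S100 genes lie side by side on the long arm of chromosome 1, while S100P lies apart on chromosome 4.

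The libraries held 38506162 to 41679412 counted reads each. The LPS_ABS libraries stood apart in how their counts followed GC content, with slopes of log2 counts of 0.22 to 0.36 per 10 GC points, against -0.30 to -0.02 in the other 6. LPS_ABS 1 and 2 also favoured short transcripts, with slopes of -0.08 and -0.11 per doubling of length, against 0.00 to 0.06 in the other 7. These trends bear on the S100 genes, because the lengths of 8 of the 9 (434 to 671 bases; S100A13, 1892) lie within the shortest 1.2% of tested genes. Values after a correction for GC content, and for some genes also for length, are therefore given beside the comparisons with LPS_ABS. Monocyte and macrophage markers were present in all groups, none of them at 0. The summed level of the 12 listed was, in CPM (counts scaled to library size), 1500 to 1580 in controls, 1650 to 1780 in LPS libraries and 1890 to 2230 in LPS_ABS libraries. That sum, which has no GC correction, moved with the groups as S100A8 and S100A9 did between LPS and LPS_ABS. Not every marker did: FCGR1A was at 157 to 174 CPM with LPS and 109 to 156 CPM with LPS_ABS. The GC correction moved the log2 difference of LPS_ABS from LPS from 0.28 to -0.18 for SPI1. It moved that of CD33 from 0.31 to 0.09 and that of CD14 from 0.82 to 0.43. The part of the sum in the S100A8 and S100A9 differences was not tested. Granulocyte markers were also high and are described with S100A12. The other listed lineages were low, with summed levels of at most 6.54 CPM for fibroblasts, 0.276 for chondrocytes, 0.135 for T cells, 8.83 for B cells and 0.960 for endothelial cells in any library.

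The promoters of 5 members are shown because these genes carry most of the differences described below: S100P and S100A11 were higher with LPS, and S100A8, S100A9 and S100A10 were highest with LPS_ABS. S100A13, also called with LPS, has 3 listed starts and is not shown. Each is the 250 bases before the transcript start, 5′ to 3′ on the gene's strand, from RefSeq (GRCh38.p14), which had an entry for all 9 members. Capitals mark the motifs searched.
S100P (chr4:6693628-6693877, plus strand): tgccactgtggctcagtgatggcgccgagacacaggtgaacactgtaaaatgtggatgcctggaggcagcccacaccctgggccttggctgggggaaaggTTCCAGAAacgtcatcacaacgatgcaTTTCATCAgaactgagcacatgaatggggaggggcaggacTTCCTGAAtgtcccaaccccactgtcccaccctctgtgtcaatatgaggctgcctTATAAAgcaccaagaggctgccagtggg
S100A11 (chr1:152037005-152037254, minus strand): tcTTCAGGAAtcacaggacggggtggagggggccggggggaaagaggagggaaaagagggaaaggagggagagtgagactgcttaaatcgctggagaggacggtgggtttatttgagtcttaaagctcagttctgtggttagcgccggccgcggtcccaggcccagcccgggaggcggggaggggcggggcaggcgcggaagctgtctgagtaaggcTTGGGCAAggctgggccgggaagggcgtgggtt
S100A9 (chr1:153357604-153357853, plus strand): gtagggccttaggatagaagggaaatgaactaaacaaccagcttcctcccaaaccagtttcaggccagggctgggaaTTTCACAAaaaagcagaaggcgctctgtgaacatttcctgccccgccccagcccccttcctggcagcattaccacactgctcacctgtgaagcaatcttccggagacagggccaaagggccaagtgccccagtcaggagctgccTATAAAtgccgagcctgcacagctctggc
S100A8, 1 of 3 listed starts (chr1:153391074-153391323, minus strand): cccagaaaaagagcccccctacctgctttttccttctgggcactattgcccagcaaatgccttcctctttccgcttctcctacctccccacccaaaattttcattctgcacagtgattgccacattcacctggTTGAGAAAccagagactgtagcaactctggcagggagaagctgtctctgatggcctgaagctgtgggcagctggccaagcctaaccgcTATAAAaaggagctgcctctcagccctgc
S100A10 (chr1:151993860-151994109, minus strand): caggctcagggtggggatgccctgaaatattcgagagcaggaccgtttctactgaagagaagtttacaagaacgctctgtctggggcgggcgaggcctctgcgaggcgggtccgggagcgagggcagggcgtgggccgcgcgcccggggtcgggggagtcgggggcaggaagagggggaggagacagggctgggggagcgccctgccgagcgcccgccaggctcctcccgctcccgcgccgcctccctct
The motifs were TTNNGNAA (bound by C/EBP factors), TGATGNAA (the C/EBP-ATF response element), TGANTCA (AP-1), TGACGTCA (CRE), GAGGAAGT (PU.1), the interferon-stimulated response element and the NF-kB consensus on both strands, and TATAAA (the TATA box) on the gene's strand. The C/EBP-ATF element occurred in S100P alone among the 13 member promoter entries, 123 bases before the start, where it appears as the reverse complement, and in 3.14% of all 35116 promoters. TATAAA occurred in 7 of the 13 entries, from 6 of the 9 genes, against 6.80% of all promoters. In S100P, S100A8 and S100A9 it began 28, 29 and 29 bases before the start. The C/EBP pattern, which is loose, occurred in 8 of the 13 entries and in 33.2% of all promoters. The entries were those of S100P, S100A6, S100A8, S100A9, S100A11, S100A12 and S100A13. The S100A8 windows chr1:153391074-153391323 and chr1:153390977-153391226 overlap, so the C/EBP and TATAAA sites they share enter both counts more than once. AP-1 occurred in S100A12 alone (6.57% of all promoters). CRE, PU.1, NF-kB and interferon-stimulated matches (1.65, 2.17, 9.96 and 3.02% of all promoters) were not found in the member windows, which says only that the letters are absent there. No matches overlapped one another in the 5 windows shown, and S100A10 held none of the motifs.

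Levels between genes are compared as FPKM, reads scaled by transcript length and library total. In control cells S100A4, a binder of non-muscle myosin, led with 928 ± 60.5 FPKM (SD, n = 3), rank 70 among all genes. S100A6, or calcyclin, followed at 437 ± 17.4 FPKM, then S100A11, a partner of annexin A1, at 388 ± 19.5 FPKM, and S100A9 at 316 ± 19.2 FPKM. The library ranges of these 4 did not overlap in controls. S100A8 (62.0 ± 10.8 FPKM) and S100A10, the annexin A2 partner at the plasma membrane (44.7 ± 4.59 FPKM), came next. Their ranges were also apart, at 50.1 to 71.2 and 41.4 to 49.9 FPKM. S100A12 (3.47 ± 0.380 FPKM), S100P (3.04 ± 0.884 FPKM) and S100A13 (2.77 ± 0.207 FPKM) were lowest, and S100P overlapped with both of the others. With LPS S100P moved from place 8 to place 5 of the 9, at 74.0 ± 9.05 FPKM, and S100A11 from place 3 to place 2, at 825 ± 34.1 FPKM.

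**Figure D1:**
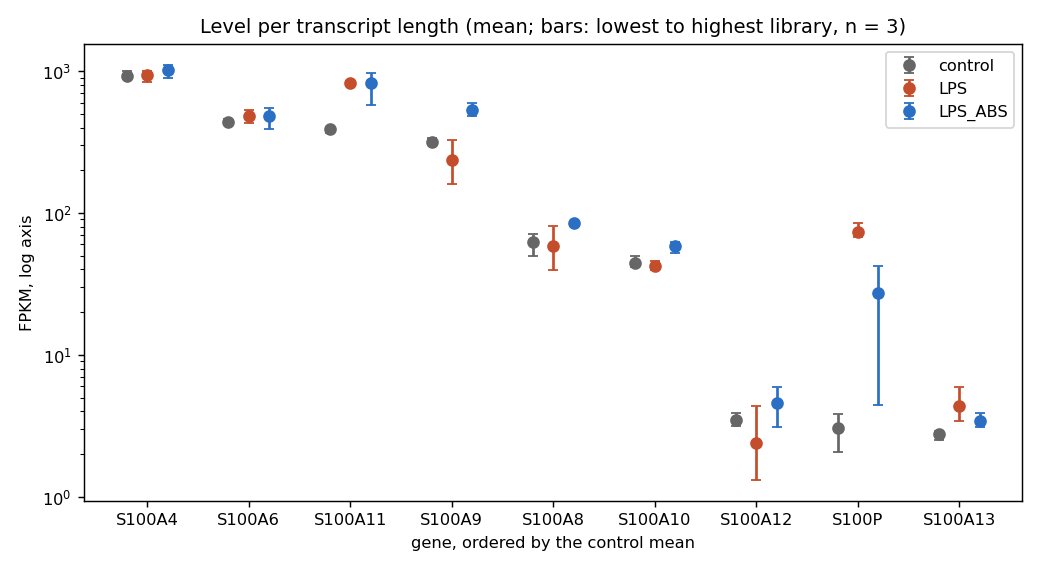
Level of each S100 member per transcript length (FPKM, log axis) in control, LPS and LPS_ABS libraries; points are means and bars run from the lowest to the highest of 3 libraries. S100A4 led in all 3 groups, S100P rose from 3.04 to 74.0 FPKM with LPS, and its LPS_ABS libraries spread from 4.42 to 42.6 FPKM.

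Together the 9 genes summed to 2128, 2200 and 2224 FPKM in the control libraries, 2919, 2452 and 2634 with LPS, and 3408, 3196 and 2489 with LPS_ABS. All LPS libraries lay above all controls, and LPS_ABS 3 lay within the LPS range. S100A4, S100A6 and S100A11 made up 74.4 to 87.5% of the sum in every library. S100P made up 0.0936 to 0.180% in controls, 2.34 to 3.21% with LPS, 1.04 and 1.33% in LPS_ABS 1 and 2, and 0.178% in LPS_ABS 3.

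The family members outside the 9 were near the limit of detection. Of 11 other S100 genes listed for comparison, 8 had a row, and their counts reached at most 38 in any library (S100A2 in LPS_ABS 1). S100A5 lies between the abundant S100A6 and S100A4 on chromosome 1 and had 4 to 23 counts per library, whereas S100A6 had 6543 to 9545. S100A3, next to S100A4, had 0 to 2 counts, and since it overlaps S100A4 on the same strand, shared reads may not have been assigned to it. Only 4 (S100A2, S100A5, S100A16 and S100B) had enough counts to be tested, and edgeR called 0 of them in each comparison. DESeq2 and limma-voom also called 0. In edgeR 1 value had an unadjusted p under 0.05, that of S100B between LPS_ABS and LPS (adjusted p = 0.0664). Over all genes the shares called were 14.9% for LPS against control, 35.6% for LPS_ABS against LPS and 33.8% for LPS_ABS against control. With at most 38 counts per library, the SEs of these 4 genes were 0.675 to 0.833 in log2 units. The absence of calls therefore says little about them.

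S100P binds the membrane linker ezrin and is best known from placenta and from epithelial tumours. Among the 9 it showed the widest range, taken as the ratio of its highest to its lowest library. S100P was chosen by its own levels, which favours such a range. Its level, in CPM after TMM scaling, was 1.73, 1.45 and 0.960 in controls 1 to 3 and 30.8, 32.2 and 40.1 with LPS 1 to 3. In the LPS_ABS libraries it was 18.3 and 20.8 in LPS_ABS 1 and 2 but 2.15 in LPS_ABS 3. Behind these stand 39 to 72 reads in controls, 1340 to 1558 with LPS, and 646, 773 and 81 with LPS_ABS 1, 2 and 3. All LPS libraries lay far above the controls, and all LPS_ABS libraries lay between the 2 groups without overlap with either, LPS_ABS 3 just above the highest control. In bulk RNA a change in the number of cells expressing a gene and a change in RNA per cell cannot be told apart.

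The group means of S100P were 1.38 ± 0.388 CPM in controls, 34.4 ± 5.02 CPM with LPS and 13.8 ± 10.1 CPM with LPS_ABS (SD, n = 3 each). The fitted log2 fold change was 4.63 ± 0.63 (SE) for LPS against control, or 24.8-fold. For LPS_ABS against LPS it was -1.32 ± 0.53, and its size and SE depended on LPS_ABS 3. Without that library it was -0.81 ± 0.20, still lower, and without LPS_ABS 2 it was -1.75 ± 0.62. Against control LPS_ABS stood at 3.31 ± 0.60, and at 3.82 ± 0.22 without LPS_ABS 3. The GC correction left these values at 4.64, -1.52 and 3.12. LPS_ABS 3 held 11% of the mean S100P level of LPS_ABS 1 and 2, the lowest such share of the 9 members. S100P was chosen for its difference in that library, so this place among the 9 is no separate result.

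**Figure D2:**
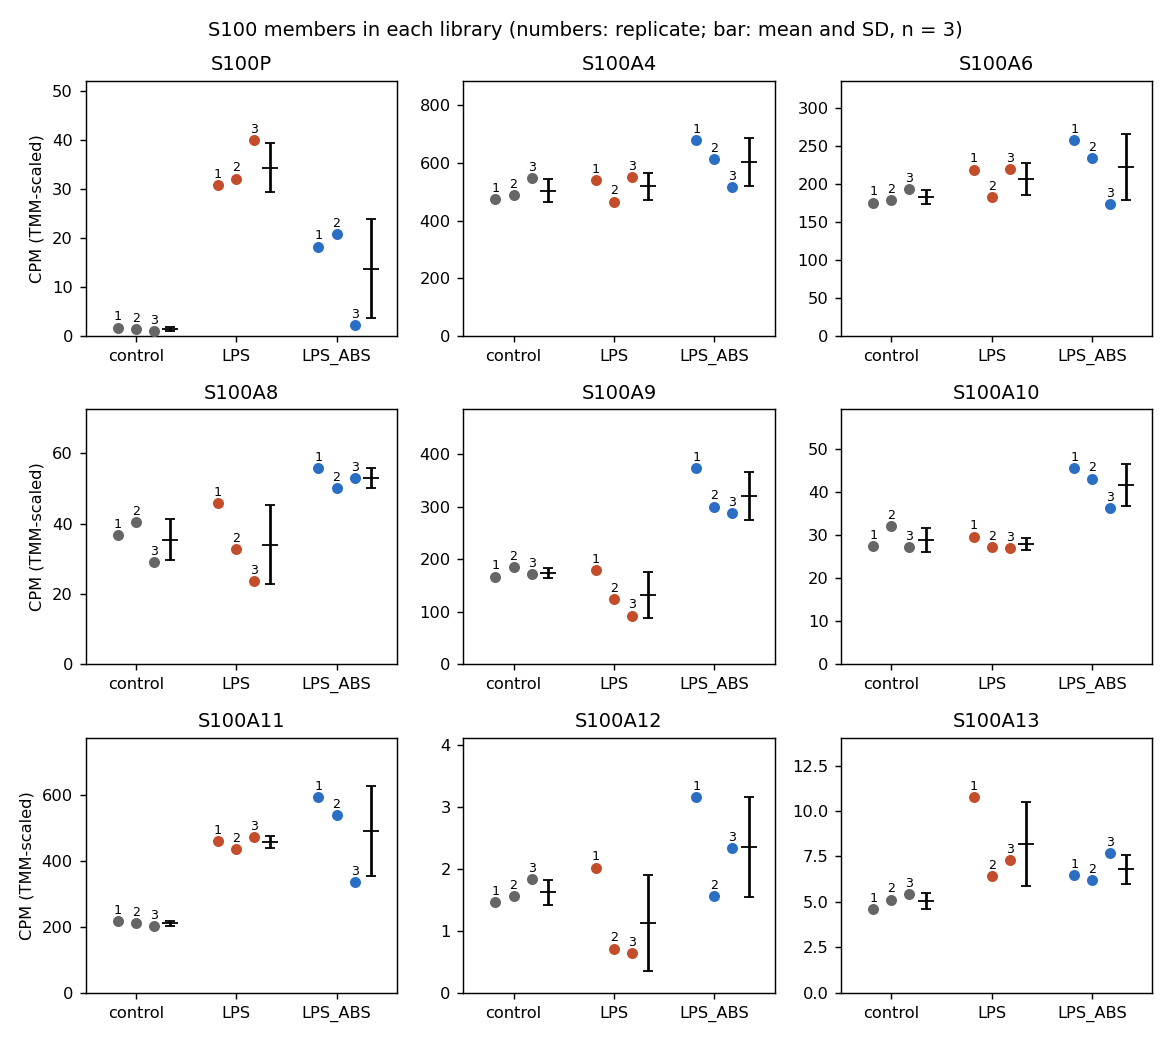
Level of each S100 member in every library (CPM after TMM scaling, each panel from 0); points are libraries numbered by replicate and the bar is the mean with SD of 3. S100P in LPS_ABS 3 (2.15 CPM) sits beside the controls (0.960 to 1.73), while S100A8 in the same library (53.0 CPM) lies between LPS_ABS 1 and 2.

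LPS_ABS 3 lay closer to the controls in many LPS-responsive genes, not in S100P alone. On a scale where the control mean of log2 CPM is 0% and the LPS mean is 100%, S100P stood at 80.5% in LPS_ABS 1, 84.6% in LPS_ABS 2 and 14.4% in LPS_ABS 3. Over the 442 genes called higher with LPS and at least 2-fold so, S100P among them, the median position was 85.7, 81.7 and 39.4% in the same libraries. In LPS_ABS 3 the quartiles of these genes were 4.2 and 66.1%, and 30.5% of them lay at or below S100P. Since S100P was chosen by these same values, its membership and its place in the set are description and not a test. S100A11 stood at 134.1, 121.6 and 60.3%, beyond the LPS mean in 2 libraries and between the groups in LPS_ABS 3. All these positions carry no GC or length correction. The GC slope was 0.221, 0.319 and 0.362 in LPS_ABS 1, 2 and 3, and the length slope -0.082, -0.107 and 0.002. The part of these trends in the positions was not tested. The 442 genes were chosen by the same difference between LPS and control that sets the scale.

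**Figure D3:**
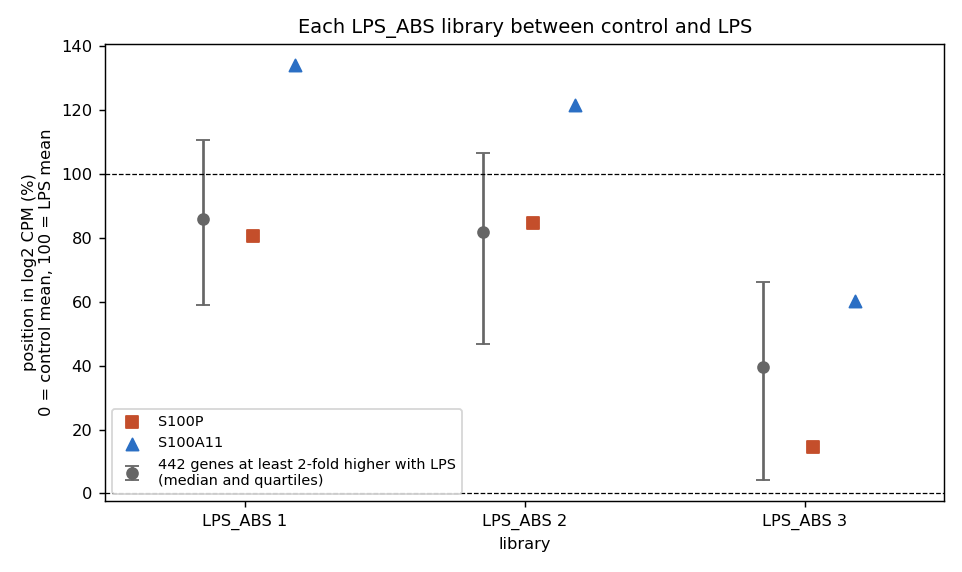
Position of each LPS_ABS library between the control mean (0%) and the LPS mean (100%) of log2 CPM, for S100P, S100A11 and 442 genes at least 2-fold higher with LPS (median and quartiles). S100P falls from 80.5 and 84.6% in LPS_ABS 1 and 2 to 14.4% in LPS_ABS 3, and the median gene from 85.7 and 81.7% to 39.4%.

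The genes nearest to S100P over the 9 libraries were ranked by the root mean square difference between log2 CPM profiles, each centred on its own mean, among 10634 genes whose mean count reached 100 or more. The 5 nearest were ST6GALNAC3, a sialyltransferase (0.31), KLHDC7B (0.45), NUPR1, a stress-induced nuclear protein (0.46), SYTL1, a synaptotagmin-like protein (0.49), and TTC39B (0.58). For scale, the S100P profile itself varied by 2.09 around its mean. NUPR1 was at 3.62 to 10.3 CPM in controls, 93.5 to 106 with LPS, 65.0 and 68.1 in LPS_ABS 1 and 2, and 16.5 in LPS_ABS 3. ST6GALNAC3 was at 0.664 to 1.46, 15.9 to 19.6, 15.2, 11.1 and 1.2 CPM in the same order. All 5 were at their lowest LPS_ABS level in LPS_ABS 3, which is part of what the ranking selects. No other S100 member came near: the nearest, S100A11, differed from S100P by 1.59.

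**Figure D4:**
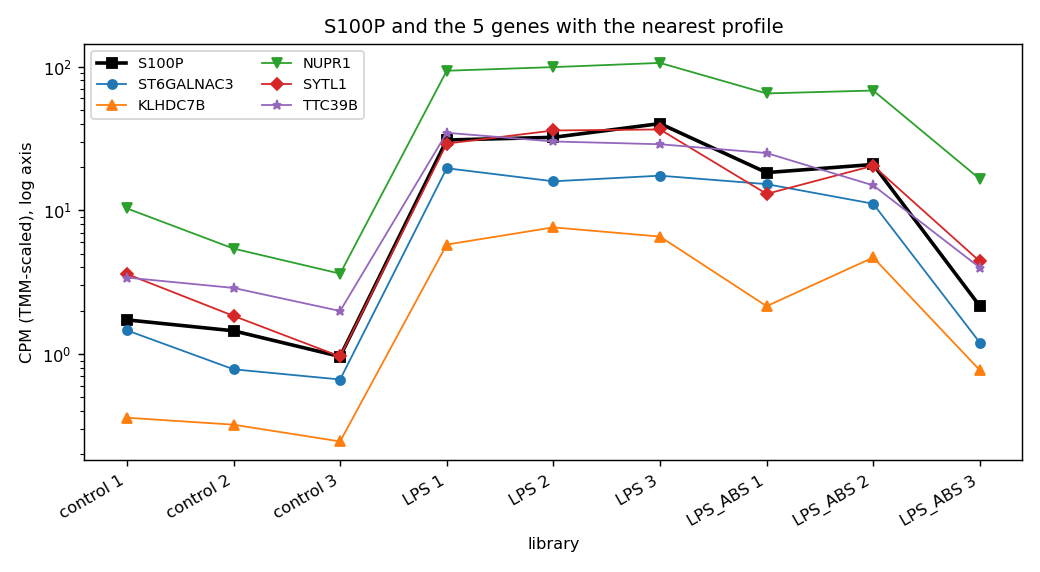
Level (CPM after TMM scaling, log axis) of S100P and the 5 genes with the nearest profile in each of the 9 libraries; lines join the libraries only to show each profile. All 6 genes are high in the 3 LPS libraries and lower in LPS_ABS 3 than in LPS_ABS 1 and 2, with S100P at 2.15 against 18.3 and 20.8 CPM.

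Of the 3 protein-coding genes on each side of S100P on chromosome 4, in RefSeq order, 5 were tested. None was called for LPS against control (edgeR adjusted p 0.172 to 0.997), where 14.9% of all genes were called. Between LPS_ABS and LPS 2 of the 5 were called lower, MRFAP1L1 (-0.67, edgeR adjusted p = 0.00675) and KIAA0232 (-0.89, adjusted p = 0.00570). In that comparison 35.6% of all genes were called, 18.8% lower. These neighbour values carry no GC correction. The log2 fold changes with LPS were 0.10 for MRFAP1, 0.21 for MRFAP1L1, -0.06 for BLOC1S4, 0.37 for KIAA0232 and 0.00 for MAN2B2. Markers of epithelial cells, where S100P is often found, were near 0. For 6 of 8 listed epithelial markers with a row the summed level in controls was 1.29 to 3.10 CPM. It was 2.80 to 4.19 CPM in LPS libraries and 3.23 to 3.62 CPM in LPS_ABS libraries, and EPCAM was at most 0.266 CPM in any library.

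Between LPS and control, 2 of the 8 members tested were called, both higher, at a Benjamini-Hochberg adjusted p under 0.05 in edgeR's quasi-likelihood test. Over all 12970 genes tested 14.9% were called, 7.71% higher and 7.19% lower. The library ranges of the groups were apart for the same 2 members, and for 42.6% of all genes. S100A11, which also acts in membrane repair, was at 218, 212 and 202 CPM in controls and 462, 437 and 472 CPM with LPS. The groups did not overlap, and S100A11 rose 2.17-fold (log2 fold change 1.12 ± 0.17 SE, edgeR adjusted p = 0.00140). It was called without any 1 library and by each other tool or correction. S100A11 has 2 annotated processed pseudogenes and an antisense gene in GENCODE, so part of its reads may be shared with them.

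S100A13, which takes part in the release of FGF1 and IL1A without a signal peptide, was at 4.60, 5.13 and 5.44 CPM in controls and 10.8, 6.41 and 7.31 CPM with LPS. LPS 1 was the highest of the group, and its ranges in the 2 groups were apart. The difference was 0.69 ± 0.21 (edgeR adjusted p = 0.0473). That call ended without LPS 1 (0.44, adjusted p = 0.170), without LPS 3, and without any 1 control. The call also ended with scaling by total counts (edgeR adjusted p = 0.0559), the length correction (0.0557) and a replicate block (0.0559). It was missed by limma-voom (adjusted p = 0.0567). The GC correction (edgeR adjusted p = 0.0412) and DESeq2 (adjusted p = 0.0176) kept it. S100A13 overlaps S100A1 on the opposite strand, and the strand setting of the counting was not given. S100A1 had 2 to 5 counts in controls and 8 to 19 with LPS, against 192 to 223 and 268 to 469 for S100A13.

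The calgranulins S100A8, S100A9 and S100A12 were not called between LPS and control, and the LPS libraries disagreed among themselves. S100A9 was at 167, 186 and 172 CPM in controls and 180.0, 125.0 and 93.0 CPM with LPS 1, 2 and 3. S100A8 was at 36.8, 40.5 and 29.1 CPM in controls and 45.8, 32.9 and 23.6 CPM with LPS. S100A12 was at 1.46, 1.57 and 1.85 CPM in controls and 2.02, 0.717 and 0.643 CPM with LPS. In all 3 genes LPS 1 was the highest LPS library and lay within or above the controls. The differences were -0.40 ± 0.20 for S100A9 (edgeR adjusted p = 0.203), -0.06 ± 0.21 for S100A8 (0.892) and -0.52 ± 0.44 for S100A12 (0.470). Without LPS 1 S100A9 was called lower (-0.68, edgeR adjusted p = 0.0201). At 25 to 112 reads per library, S100A12 carries a counting error of up to 20%.

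S100A4, S100A6 and S100A10 stayed close between control and LPS. S100A4 was at 475, 488 and 548 CPM in controls and 540.0, 466 and 549 CPM with LPS, and the groups overlapped. The 95% intervals of the log2 difference were -0.23 to 0.32 for S100A4, -0.14 to 0.50 for S100A6 and -0.34 to 0.25 for S100A10. For the 8 genes the median difference was 0.00, against -0.03 over all genes tested.

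**Figure D5:**
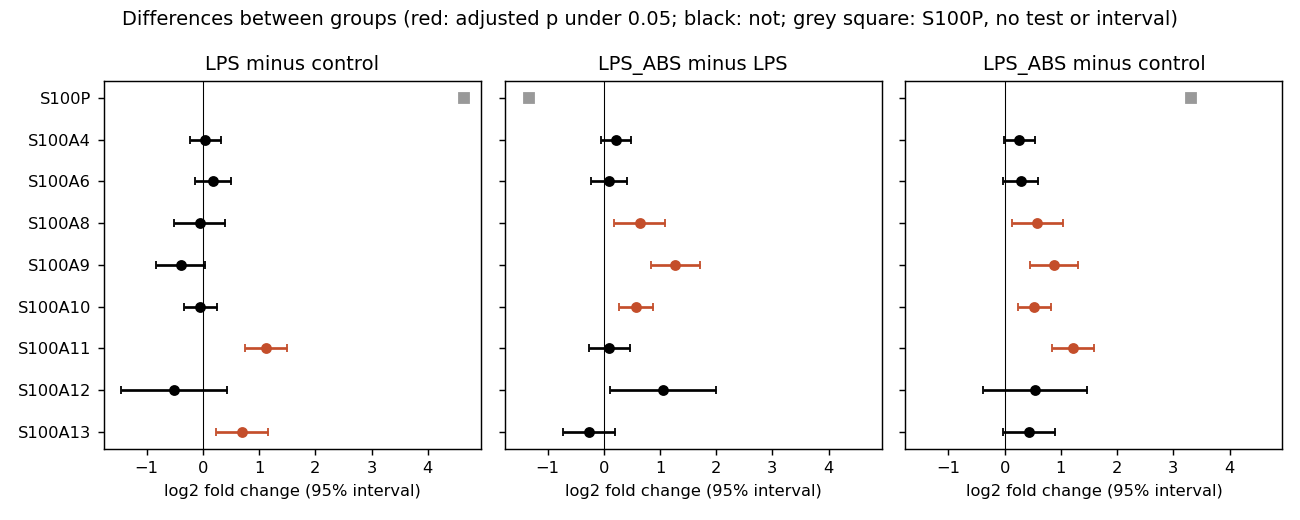
Log2 fold change of each S100 member in the 3 comparisons of group means from 1 edgeR fit; bars are 95% intervals and red marks an adjusted p under 0.05, with S100P as grey squares without test or interval. S100A11 and S100A13 are called for LPS minus control, and S100A8, S100A9 and S100A10 for LPS_ABS minus LPS.

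Between LPS_ABS and LPS, 3 of the 8 members tested were called, all higher, in a comparison where 35.6% of all genes were called, 16.8% higher and 18.8% lower. The groups did not overlap for the same 3, against 46.2% of all genes. After the GC correction 1 of the 3 was called, S100A9, and calls over all genes fell to 9.19%. After the length correction 2 were called, S100A9 and S100A10, against 37% of all genes. S100A9 was at 373, 300.2 and 288 CPM in LPS_ABS 1, 2 and 3, above every control (167 to 186) and every LPS library (93.0 to 180.0). Its difference from LPS was 1.27 ± 0.20 (2.41-fold, edgeR adjusted p = 0.00376), and 0.93 after the GC correction (adjusted p = 0.0249). It was called without any 1 library, at 1.07 to 1.56. Its difference from control, 0.87 ± 0.20 (adjusted p = 0.00668), was not called after the GC correction (0.57, adjusted p = 0.106).

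S100A8, the partner of S100A9 in calprotectin, was at 55.7, 50.1 and 53.0 CPM in LPS_ABS 1, 2 and 3, narrowly above the highest LPS library (45.8) and the highest control (40.5). Its difference from LPS was 0.64 ± 0.21 (edgeR adjusted p = 0.0331), and from control 0.58 ± 0.21 (0.0488). Both calls ended with the GC correction (0.52 and 0.50, adjusted p = 0.125 and 0.136) and with the length correction (adjusted p = 0.0507 and 0.0646). The call against LPS ended without LPS 2, LPS 3, or any 1 LPS_ABS library, and that against control without any 1 library of either group. The differences themselves were 0.43 to 0.91 against LPS and 0.45 to 0.68 against control with 1 library left out.

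S100A9 was in excess of S100A8 per transcript length in every library. The ratio of S100A9 to S100A8 FPKM was 4.70, 4.75 and 6.10 in controls, 4.08, 3.94 and 4.08 with LPS, and 6.94, 6.21 and 5.63 with LPS_ABS. The LPS libraries lay below all others, and control 3 lay within the LPS_ABS range. These ratios carry no GC correction, and the GC content was 55.6% for S100A9 and 50.1% for S100A8. With the correction the log2 difference of LPS_ABS from LPS went from 1.27 to 0.93 for S100A9 and from 0.635 to 0.521 for S100A8. The genes with the profile nearest to S100A8 were LYZ, which encodes lysozyme (root mean square difference 0.17), MSX1 (0.20), SLC22A31 (0.21), ST6GAL1 (0.23) and PSRC1 (0.23). S100A9 differed from it by 0.29. The S100A8 profile itself varied by only 0.40, so these small differences set it apart from few genes.

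S100A12 was at 3.17, 1.56 and 2.34 CPM with LPS_ABS, overlapping LPS 1, and was not called against LPS (1.05 ± 0.43, edgeR adjusted p = 0.0744; 1.25 after the GC correction, 0.0745). It was called without LPS 1 (1.79, adjusted p = 0.0206), by DESeq2 (adjusted p = 0.0436) and by limma-voom (0.0465). Of 12 granulocyte markers 9 had a row. ELANE, AZU1, PRTN3 and CTSG, proteases or relatives of the primary granules, were at 514 to 1750 CPM in every library. MPO, also of the primary granules, was only at 3.95 to 8.44 CPM. LTF, CAMP and MMP8 of the later granules were under 1 CPM throughout, while the receptor CXCR2 was at 18.5 to 38.4 CPM. The summed granulocyte list was at 3430 to 3850 CPM in controls. It was at 4330 to 5060 CPM in LPS libraries and 4670 to 5380 CPM in LPS_ABS libraries. The sum hides moves in opposite directions. Each LPS library held more CTSG (1510 to 1750 CPM) than any control (756 to 771 CPM), and ELANE and AZU1 also lay higher. Each held less PRTN3 (868 to 941 CPM) than any control (1080 to 1230 CPM). The part of the granulocyte sum in the S100 differences was not tested.

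S100A10, which joins annexin A2 in a membrane-bound tetramer, was at 27.5, 32.1 and 27.2 CPM in controls, 29.7, 27.2 and 27.1 CPM with LPS, and 45.6, 43.2 and 36.3 CPM with LPS_ABS. Every LPS_ABS library lay above all others. The difference was 0.57 ± 0.14 from LPS (edgeR adjusted p = 0.00969) and 0.53 ± 0.14 from control (0.0125). After the GC correction these were 0.24 and 0.21 and no longer called (adjusted p = 0.281 and 0.353), whereas after the length correction they were 0.49 and 0.46 and called (0.0109 and 0.0133). Without control 1 or control 3 the difference from control was not called (adjusted p = 0.0631 and 0.0524).

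S100A11 kept its LPS level with ABS as a group but not in each library. LPS_ABS 1 and 2, at 595 and 540 CPM, lay above all LPS libraries, and LPS_ABS 3, at 336 CPM, lay below them and above all controls. Its difference from LPS was 0.10 ± 0.17 (edgeR adjusted p = 0.667), with a 95% interval of -0.27 to 0.47. It was -0.17 after the GC correction, and 0.31 and called without LPS_ABS 3 (adjusted p = 0.0382). Its difference from control was 1.22 ± 0.17 (adjusted p = 8.33e-04), 0.96 after the GC correction (adjusted p = 0.00452).

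S100A4 and S100A6 moved together over the 9 libraries, with the smallest profile difference of any pair of members (0.08), and the ratio of their FPKM stayed between 1.90 and 2.29. S100A4 was at 680, 614 and 515 CPM and S100A6 at 259, 235 and 174 CPM in LPS_ABS 1, 2 and 3. LPS_ABS 1 and 2 lay above all other libraries in both genes, and LPS_ABS 3 lay among the other groups in S100A4 but below all other 8 libraries in S100A6. Neither gene was called between LPS_ABS and LPS (0.22 ± 0.13 and 0.10 ± 0.15, edgeR adjusted p = 0.193 and 0.620), and after the GC correction the 2 values were -0.02 and -0.35. Against control both were called without LPS_ABS 3 (0.36 and 0.43, adjusted p = 0.0294 and 0.0167) but not with it (0.26 and 0.28, adjusted p = 0.124 and 0.152). After the GC correction the values against control were 0.04 and -0.10. S100A13 was at 6.48, 6.22 and 7.68 CPM with LPS_ABS, and was not called against LPS (-0.27 ± 0.21, edgeR adjusted p = 0.346) or control (0.43 ± 0.22, 0.137). After the GC correction these values were -0.61 and 0.12 (edgeR adjusted p = 0.108 and 0.779).

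Between LPS_ABS and control 4 of the 8 members were called, all higher (S100A8, S100A9, S100A10 and S100A11), where 33.8% of all genes were called, 14.8% higher and 19% lower. The groups did not overlap for these 4 and S100A13, 5 of 8, against 50% of all genes. After the GC correction 1 of the 8 was called, S100A11, against 13% of all genes. This comparison shares its LPS_ABS libraries with the comparison against LPS and its controls with that of LPS against control, so the counts are not independent.

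The counts in the lists that follow are to be read against the shares of all genes called, 14.9% for LPS against control, 35.6% for LPS_ABS against LPS and 33.8% for LPS_ABS against control. After the GC correction the latter shares were 9.19 and 13%. Among 10 receptors for secreted S100 proteins, all tested, edgeR called 2 higher and 1 lower with LPS, against 7.71 and 7.19% of all genes. It called 1 higher and 3 lower with LPS_ABS against LPS, and 0 of the 10 after the GC correction. Against control 3 were called higher and 2 lower with LPS_ABS, and 2 and 0 after the correction. CD14, the co-receptor of TLR4, rose with LPS from 17.5 ± 1.02 to 31.3 ± 3.95 CPM (SD, n = 3; log2 fold change 0.84, adjusted p = 0.0119) and was at 55.1 ± 16.2 CPM with LPS_ABS. Against LPS its difference was 0.82 (adjusted p = 0.00871), and 0.43 after the GC correction (adjusted p = 0.101). BSG, a receptor of S100A9, was at 899 to 1210 CPM by group mean. The receptors ALCAM and CD36 fell with LPS_ABS against LPS (-0.84 and -0.72, edgeR adjusted p = 0.0150 and 0.0197), and were at -0.28 and -0.18 after the GC correction, not called.

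Of 19 binding partners inside the cell 16 were tested. With LPS 1 was called higher and 2 lower, where 14.9% of all genes were called. With LPS_ABS against LPS 3 were called higher (ANXA11, PPP5C and DIAPH1) and 1 lower, where 35.6% of all genes were. None of these 4 was called after the GC correction, where 3 others were called higher, ANXA1, CACYBP and ANXA2. Against control 5 were called higher and 2 lower with LPS_ABS, and 2 and 1 after the correction. EZR, or ezrin, the partner of S100P, rose with LPS from 346 ± 19.7 to 459 ± 29 CPM (0.41, edgeR adjusted p = 0.0272) and was at 468 ± 40.0 CPM with LPS_ABS. ANXA11, an annexin that binds S100A6, rose with LPS_ABS against LPS (0.34, adjusted p = 0.0320) and stood at 0.14 after the GC correction (adjusted p = 0.414). PPP5C, a phosphatase, rose by 0.63 and the scaffold IQGAP1 fell by 0.57 in that comparison (adjusted p = 0.00544 and 0.0117), and neither was called after the correction.

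Calprotectin delivers arachidonic acid to the NADPH oxidase, and 3 of its 7 listed subunits were called higher with LPS, against 7.71% of all genes. Among them were NCF4 (0.50) and RAC1 (0.41), with edgeR adjusted p of 0.0192 and 0.0296. With LPS_ABS against LPS 2 of the 7 were called higher, against 16.8% of all genes, among them RAC2 (0.34, adjusted p = 0.0465), and 0 after the GC correction. Against control 4 were called higher with LPS_ABS, against 14.8% of all genes, and 2 after the correction. Of 11 myeloid transcription factors 1 was called with LPS: CEBPB, which rose from 46.0 ± 4.06 to 129 ± 18.4 CPM (1.48 ± 0.19, adjusted p = 4.5e-04). CEBPD was at 93.8 ± 1.42 CPM in controls, 110 ± 22.8 with LPS and 177 ± 28.7 with LPS_ABS, called higher against LPS (0.69, adjusted p = 0.00939) but not after the GC correction (0.23, adjusted p = 0.235). HIF1A and NR3C1 were called lower in the same comparison (-0.56 and -0.75, edgeR adjusted p = 0.0340 and 0.00686), and neither was after the correction (0.15 and -0.13). After it 1 other gene of the 11 was called lower and 0 higher, where 9.19% of all genes were called. Against control 4 of the 11 were called higher and 1 lower with LPS_ABS, where 33.8% of all genes were called. After the correction 3 were called higher and 0 lower, where 13% of all genes were called.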

How the data were processed

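RNA sequencing of 9 libraries was analysed from the deposited tables. The authors deposited raw read counts per gene and FPKM values for 16222 genes. The tools listed in the submitters' processing notes, without roles, are DESeq2, HTSeq, HISAT2, fastp and R 3.2.0. Strand setting, annotation and genome build are details not given in the sources used here. Per the labels' protocols, TRIzol served for extraction, and each sample lists 2 library kits. Dividing counts by the deposited FPKM gave 1 length per gene, used as transcript length.

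Counts were fitted with edgeR 4.0.16 in R 4.3.3: filterByExpr on group (12970 genes), TMM scaling, 3 group means, 6 residual degrees of freedom, quasi-likelihood F test, Benjamini-Hochberg adjustment over all genes tested and a call at an adjusted p under 0.05. CPM are TMM-scaled, and log2 CPM use a prior count of 2. At the depth of 38506162 to 41679412 reads, counting error is at most 3.3% for members with 917 reads or more. Libraries of a group were not duplicates (lowest chi-square per degree of freedom 7.22). The GC and length corrections are lowess trends (span 0.3) per library entered as offsets, with GC content of the longest protein-coding GENCODE transcript (99.34% of genes matched). DESeq2 1.42.0 and limma-voom 3.58.1 were alternatives, with other scalings, no filter, 2-group fits, a replicate block and libraries left out in turn. The members and gene lists were chosen with earlier results of these data known. All 9 members were named; of each list, up to 4 tested genes with the smallest adjusted p over the comparisons, and the 5 genes nearest in profile to S100P and to S100A8. A gene that this rule names is not reported here. S100A1, S100A3, DIAPH1, ANXA1, ANXA2, CACYBP and the neighbours of S100P were named after their values were seen. So were FCGR1A, SPI1, CD33, MPO and CXCR2.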

Additional observations from a re-analysis of the deposited data

How the results depend on the processing

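Over the alternatives, 319 of 384 values of the 8 tested members kept their direction and their side of the threshold, 35 lost a call, 9 gained one and 21 changed sign, none of the 21 called in the fit described above. The S100A11 call against control held in every alternative for both LPS and LPS_ABS, as did the S100A9 call against LPS. Counts of all genes called moved most with the GC correction, to 1192 for LPS_ABS against LPS (772 of the 4621 kept) and 1682 against control (1106 of 4388 kept), and to 1411 and 1761 with the replicate block and the GC correction together. Fits of only the 2 groups compared called 3245 genes for LPS against control and 3042 for LPS_ABS against LPS. Leaving out 1 library gave 873 to 1698 genes for LPS against control, 2360 to 4918 for LPS_ABS against LPS and 2351 to 4679 for LPS_ABS against control. Scaling by total counts moved the median of all genes from 0.016 to -0.085 for LPS_ABS against LPS and from 0.05 to -0.077 against control. There 32.6% of genes called for LPS_ABS against LPS were higher, against 47.2%, and 26.7% against 43.8% for LPS_ABS against control. The GC correction gave 61.1% for the latter. Values of LPS_ABS against LPS that changed sign with total counts were S100A6 (-0.004) and S100A11 (-0.005). With the GC correction they were S100A4 (-0.016), S100A6 (-0.347) and S100A11 (-0.167), with the length correction S100A6 (-0.006) and S100A11 (-0.016), and with the block and GC correction S100A4 (-0.015), S100A6 (-0.337) and S100A11 (-0.197). S100A6 against control was -0.103 with the GC correction and -0.112 with the block and GC correction. With 1 library left out, LPS against control ran from -0.33 to 0.148 for S100A8, -0.093 to 0.032 for S100A10 and -0.001 to 0.155 for S100A4. LPS_ABS against LPS ran from -0.022 to 0.249 for S100A6 and -0.062 to 0.312 for S100A11. The cause of these changes was not tested. Whether replicate numbers pair the libraries could not be decided, because deviations from means of 3 libraries tell little. Their correlations were -0.035 to 0.203 for same-numbered libraries and -0.204 to 0.172 for differently numbered ones. The replicate block called 1960, 4838 and 4573 genes against 1933, 4621 and 4388. The block ended the S100A13 call (0.672, edgeR adjusted p = 0.0559) and brought S100A12 past the threshold against LPS (1.125, 0.0387). The block with the GC correction called S100A8 against both other groups, unlike the GC correction alone. Depth limits mainly S100A12 and, in controls and LPS_ABS 3, S100P.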
